A study of Arabidopsis thaliana with 8 samples.

Results

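The aldehyde dehydrogenase (ALDH) family was described in developing leaves of Arabidopsis thaliana through 8 genes. They are the probe sets that name 1 gene with a symbol of ALDH followed by a digit, with a mean signal of at least 20 array units over the 8 arrays. Each of the 8 genes had 1 such probe set, all 8 passed the signal filter, and they stand among 15296 probe sets tested, of which 8518 name 1 gene. The RefSeq gene table names 14 ALDH genes, and the other 6 (ALDH2B4, ALDH2B7, ALDH3H1, ALDH3I1, ALDH5F1 and ALDH12A1) were not analysed here.

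Total RNA of leaf insertions 19 to 21 of the accession Col-0 was hybridised to 8 ATH1 arrays, an Affymetrix design. All samples date from 0 h, and the plants were kept on compost under 10 h of light at 50% humidity and 20 °C. The elevated group is the 4 samples whose treatment text names elevated growth. It is given as 750 ppm CO2 with 24 h of adjustment in a cuvette in the label of elevated replicate 1 alone. Replicates 2 and 3 of this group are labelled as steady state in elevated CO2, and replicate 4 as steady state elevated. The labels of the other 4 samples, the not-elevated group, name no CO2 level. The shared growth description calls the atmosphere normal for all 8 samples. In the not-elevated group the title code of replicate 1 differs from that of replicates 2, 3 and 4, and its text says A where theirs says control, so results that rest on it are also given without it. Whether replicates came from separate plants is not stated, so the spread behind the p-values may be technical.

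Aldehyde dehydrogenases oxidise aldehydes to carboxylic acids, or to acyl-CoA esters in a few members, with NAD+ or NADP+ as the acceptor. Aldehydes arise in amino acid, polyamine and phenylpropanoid metabolism and from lipids oxidised under stress, and many of them react with proteins and nucleic acids. The family numbers in the gene names follow protein similarity, and families differ in substrate and in the compartment of the cell. In leaves the family is known for making sinapic and ferulic acids, for breaking down valine, for oxidising aminoaldehydes and for clearing reactive aldehydes under drought and salt.

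Pearson's r between the 8 arrays lay between 0.974 and 0.987 on the log2(signal + 10) scale, and its mean was 0.983 within groups and 0.981 between groups. None of the 6 leaf mesophyll markers listed for a check of the tissue is named by the gene tables used here. The 7 nuclear photosystem genes named, chosen afterwards, had mean signals from 516 units (LHCB4.3) to 3289 units (LHCB4.1). Of these, 6 were higher and 1 lower in the elevated group (log2 difference -0.017 in PSB27 to 0.22 in PSBY), 1 did not overlap (LHCB4.3) and 0 passed an adjusted p of 0.05 with limma. PSBY, with the smallest limma adjusted p (0.430), was the 1 gene with an unadjusted p under 0.05. Of all tested probe sets, in either direction, 6.11% did not overlap, 0.314% passed the adjusted threshold and 11.1% the unadjusted one. Beside these shares the counts among the 7 are no result about photosystem genes. The root gene PYK10 had 23.3 ± 2.42 units in the not-elevated and 22.3 ± 10.8 units in the elevated group (SD, n = 4 each). In whole leaf samples, fewer cells of a type and less RNA per cell cannot be told apart.

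The question put to the family was which of its transcripts differ between the elevated and the not-elevated group, as the labels name them. By log2 difference, 5 of the 8 ALDH genes were lower in the elevated group, among them ALDH3F1 at -0.012, and 3 were higher. With limma 0 of the 8 passed an adjusted p of 0.05, where 0.314% of all tested probe sets did. An unadjusted p under 0.05 was reached by 3 of the 8, ALDH2C4, ALDH6B2 and ALDH7B4, all lower, where 11.1% of tested probe sets reached it in either direction and 6.05% as lower. Signals of the groups did not overlap in 1 gene of 8, ALDH22A1, which was higher, against 6.11% of tested probe sets in either direction and 2.9% as higher. The median log2 difference of the 8 was -0.038, beside 0.0013 over all tested probe sets. Their absolute differences had a median of 0.12, beside 0.10 over all. All log2 differences are elevated minus not elevated on the log2(signal + 10) scale, which understates the change of dim genes.

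**Figure D1:**
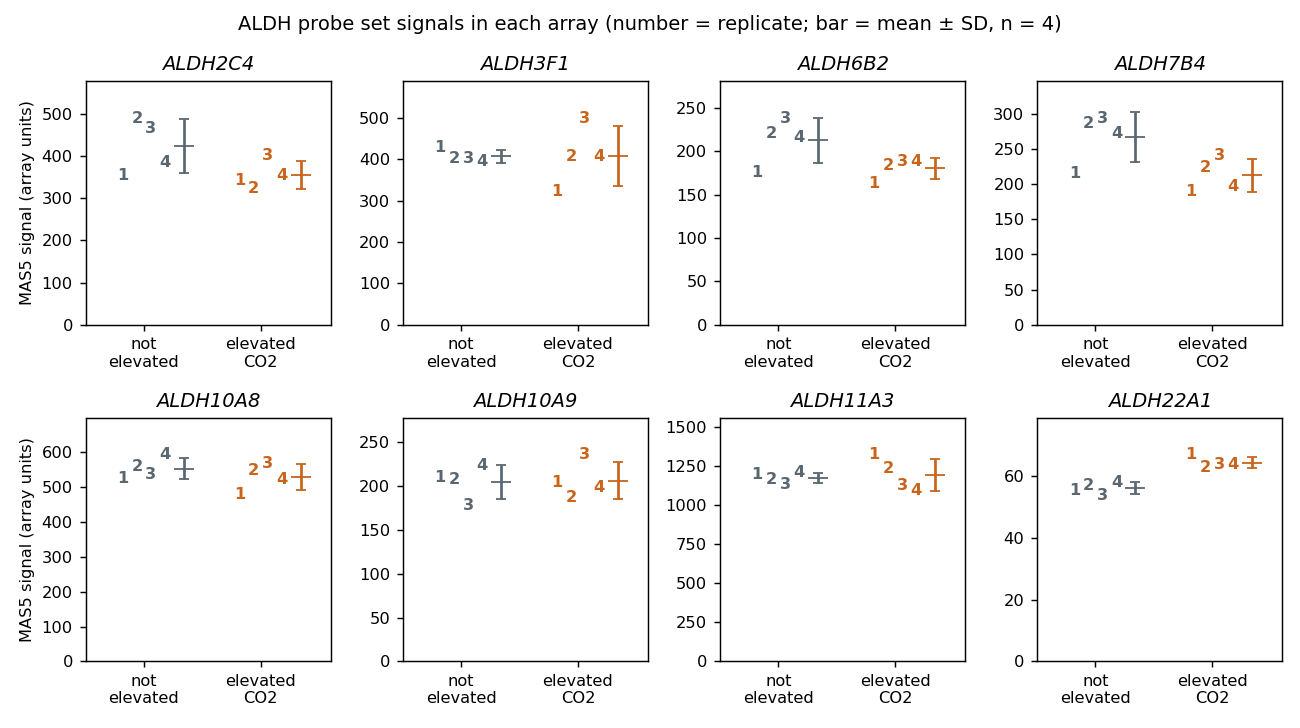
MAS5 signal in array units of the 8 ALDH probe sets, one panel a gene with its own axis from 0, with the replicate number of each array as the point and mean ± SD (n = 4) as the bar. ALDH22A1 separates the groups (53.7 to 58.1 against 63.0 to 67.0 units), and in ALDH2C4, ALDH6B2 and ALDH7B4 not-elevated replicate 1 sits at the level of the elevated arrays.

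ALDH7B4 (AT1G54100), of the antiquitin family and known to be induced by osmotic stress, had the largest difference of the 8. It read 215.9, 286.2, 294.0 and 272.6 units in not-elevated replicates 1 to 4 and 189.6, 223.2, 241.0 and 196.1 units in elevated replicates 1 to 4. The 3 not-elevated replicates 2, 3 and 4 lay above all elevated arrays, and replicate 1 lay among them. The means were 267 ± 35.3 and 212 ± 24.0 units (SD, n = 4 each), a difference of -20.5%. On the log2 scale it was -0.31 ± 0.11 (SE), with a 95% interval from -0.55 to -0.077 and a limma adjusted p = 0.289. Without not-elevated replicate 1 it was -0.41, with a limma adjusted p = 0.0814, the smallest of 18 alternatives that ran up to 0.553. Its unadjusted p stayed under 0.05 in 18 of these 18.

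ALDH6B2 (AT2G14170), the methylmalonate-semialdehyde dehydrogenase of valine breakdown in mitochondria, had a like pattern over the arrays. Its signals were 175.7, 220.2, 238.2 and 215.9 units in the not-elevated and 162.4, 183.2, 187.8 and 187.9 units in the elevated group. Again only not-elevated replicate 1 fell within the range of the elevated arrays, and elevated replicate 1 was the lowest of the 8. The means of 212 ± 26.4 and 180 ± 12.2 units differed by -15.1%, or -0.22 ± 0.10 (SE) on the log2 scale, with a 95% interval from -0.44 to -0.0041 and a limma adjusted p = 0.441. It was -0.30 without not-elevated replicate 1, with a limma adjusted p = 0.178, the smallest of its 18 alternatives, and 8 of the 18 gave an unadjusted p under 0.05.

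ALDH2C4 (AT3G24503), also named REF1, makes ferulic and sinapic acids from coniferaldehyde and sinapaldehyde. Its signals were 353.8, 489.9, 464.6 and 384.9 units in not-elevated and 342.9, 323.7, 402.1 and 352.9 units in elevated replicates 1 to 4. The groups overlapped, through not-elevated replicates 1 and 4 below elevated replicate 3. The means of 423 ± 64.4 and 355 ± 33.4 units differed by -16.0%, or -0.24 ± 0.11 (SE) on the log2 scale, with a 95% interval from -0.47 to -0.0026 and a limma adjusted p = 0.444. Of 18 alternatives 10 gave an unadjusted p under 0.05, and their adjusted p lay between 0.236 and 0.684.

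With not-elevated replicate 1 left out, a count chosen after the data were seen, 3 of the 8 genes separated the groups. ALDH6B2 and ALDH7B4 were lower and ALDH22A1 higher, and the share over all tested probe sets was then 11.5% in either direction and 6.28% as lower. The count of ALDH genes past an adjusted p of 0.05 was still 0 there, where limma called 0.856% of probe sets, and 3 of the 8 had an unadjusted p under 0.05, where 11.3% did.

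ALDH22A1 (AT3G66658), the single member of its family and of little known substrate, was the 1 gene whose groups stood apart. Its signals were 55.4, 57.2, 53.7 and 58.1 units in the not-elevated and 67.0, 63.0, 63.9 and 63.8 units in the elevated group. Every elevated array lay above every not-elevated one. The means of 56.1 ± 1.94 and 64.5 ± 1.76 units differed by 14.9%, or 0.17 on the log2 scale. The residual SD of this gene was 0.038 on the log2 scale, where 0.111% of tested probe sets had a smaller one and their median was 0.16. Its own spread gave an SE of 0.027. Limma, which draws each variance towards that of probe sets of like signal, gave an SE of 0.092, a 95% interval from -0.026 to 0.37 and an adjusted p = 0.528. The difference stayed above 0 in 18 of 18 alternatives, from 0.11 to 0.20. None of them, 0 of 18, gave an unadjusted p under 0.05, and the smallest limma adjusted p was 0.444.

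**Figure D2:**
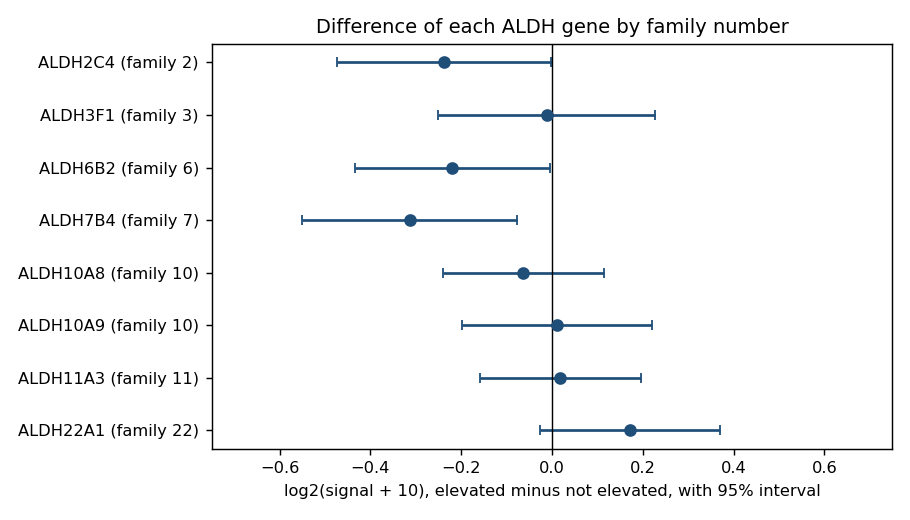
Difference between the groups for each ALDH gene on the log2(signal + 10) scale, ordered by family number, with limma's 95% interval. The intervals of ALDH2C4, ALDH6B2 and ALDH7B4 end just below 0, between -0.077 and -0.0026, and those of the other 5 genes hold 0.

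The remaining 4 genes differed little between the group means. ALDH10A8 (AT1G74920) and ALDH10A9 (AT3G48170) are betaine-aldehyde and aminoaldehyde dehydrogenases, and family 10 is the only number with a pair of members here. ALDH10A8 signals were 524.4, 558.2, 536.3 and 592.2 units in the not-elevated arrays and 479.8, 547.9, 567.5 and 521.4 units in the elevated group. ALDH10A9 read 209.3, 207.6, 177.5 and 223.1 units and 203.8, 186.5, 235.5 and 198.8 units. In both genes the groups overlapped, and elevated replicate 3 was the highest elevated array. The log2 differences were -0.063 ± 0.083 (SE, limma adjusted p = 0.837) for ALDH10A8 and 0.011 ± 0.098 (0.981) for ALDH10A9. The difference between the pair, ALDH10A8 minus ALDH10A9, was -0.075 ± 0.088 (SE), and an exact two-sided permutation test over the 70 splits of the arrays gave p = 0.429, where 0.0286 is the smallest it can give. This test was added after the data were seen, and it does not show that the pair responds alike.

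ALDH11A3 (AT2G24270), the non-phosphorylating glyceraldehyde-3-phosphate dehydrogenase of the cytosol, which yields NADPH in place of ATP, ran from 1130.3 to 1205.6 units in the not-elevated and from 1091.0 to 1319.7 units in the elevated group. The elevated arrays spread over a wider range that enclosed the other group. The means were 1173 ± 33.3 and 1192 ± 104 units, and the log2 difference of 0.019 ± 0.083 (SE) had a 95% interval from -0.16 to 0.20, with a limma adjusted p = 0.962. ALDH3F1 (AT4G36250), of the family that oxidises medium- and long-chain aldehydes, had signals of 428.7, 402.8, 401.6 and 393.4 units in the not-elevated arrays and 321.1, 405.5, 499.0 and 405.3 units in the elevated group. Elevated replicates 1 and 3 were the lowest and the highest of the 8 arrays, and the other 6 lay between them. Its log2 difference was -0.012 ± 0.11 (SE), with a 95% interval from -0.25 to 0.23 and a limma adjusted p = 0.982. The means of ALDH3F1, 406.6 ± 15.3 and 407.7 ± 72.7 units (SD, n = 4 each), differed by 0.269% in the opposite direction.

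By family number, then, the log2 differences were -0.24 in family 2, -0.012 in family 3, -0.22 in family 6, -0.31 in family 7, -0.063 and 0.011 in family 10, 0.019 in family 11 and 0.17 in family 22. Differences between family numbers were not tested apart from the pair in family 10. Over the 8 genes the 95% intervals reached from -0.55 to 0.37. The level of one probe set was not set against that of another, since probe sets differ in how strongly they bind. Means over the 8 arrays ran from 60.3 units for ALDH22A1 to 1182 units for ALDH11A3 on that probe-dependent scale.

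In the median, the ALDH genes varied slightly less than all tested probe sets. The residual SD, which measures spread within groups, ran on the log2 scale from 0.038 in ALDH22A1 to 0.18 in ALDH3F1. Its median was 0.14 beside 0.16 over all tested probe sets. The coefficient of variation over the 8 arrays also holds the difference between the groups. It ran from 6.13% in ALDH11A3 to 16.9% in ALDH7B4, with a median of 10.5% beside 13.3%. Not-elevated replicate 1 was the lowest of its group in 4 of the 8 genes, namely ALDH2C4, ALDH6B2, ALDH7B4 and ALDH10A8. Elevated replicate 1 was the lowest of its group in 4 genes and elevated replicate 3 the highest in 5. The shares of these ranks over all tested probe sets were not counted, so the counts are no result about the family.

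Of the 3 genes with an unadjusted p under 0.05, ALDH6B2 and ALDH7B4 had the closest pattern over the arrays. Pearson's r over the 8 arrays was 0.93 between ALDH6B2 and ALDH7B4 (exact two-sided permutation p = 0.00164, adjusted p = 0.0458 over 28 pairs), and Spearman's rho was 0.86 (exact permutation p = 0.0107, adjusted p = 0.300). Leaving out the 2 arrays farthest from the median of ALDH6B2 gave 0.84, and leaving out not-elevated replicate 1 gave 0.93. The permutations ran over all 8 arrays without regard to group. A difference between the groups that 2 genes share thus enters their r and its p. Centring each group on its mean gave 0.86, which was not tested. The pair was the 1 of 28 that passed on r, and 0 of 28 passed on rho. With quantile normalization its r was 0.92 and the call was lost (exact permutation adjusted p = 0.0604). Of all tested probe sets, 0.216% correlated at least as closely with ALDH6B2 as ALDH7B4 did.

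ALDH2C4 correlated with ALDH7B4 at r = 0.84 and rho = 0.81 (exact permutation p = 0.0101 and 0.0218, adjusted p = 0.135 and 0.305) and with ALDH6B2 at r = 0.82 and rho = 0.76 (exact permutation p = 0.0145 and 0.0368, adjusted p = 0.135 and 0.343). Without the 2 arrays farthest from the median of ALDH2C4 these r values were 0.62 and 0.54. Leaving out arrays chosen this way also narrows the range of ALDH2C4, so the fall cannot show what the closeness rests on. With each group centred the r values were 0.73 and 0.70, and without not-elevated replicate 1 they were 0.83 and 0.81. Of all tested probe sets, 0.889% correlated at least as closely with ALDH2C4 as ALDH7B4 did, and 1.22% at least as closely as ALDH6B2 did. Over the 28 pairs r ran from -0.73, between ALDH7B4 and ALDH22A1, to 0.93, and 14 pairs were above 0. For ALDH7B4 and ALDH22A1, whose group differences have opposite signs, r was -0.23 with each group centred and -0.92 without not-elevated replicate 1. An unadjusted exact permutation p under 0.05 on r was reached by 4 of the 28 pairs. Besides the pairs named above, this was ALDH7B4 with ALDH10A8, at r = 0.71 and rho = 0.69 (exact permutation p = 0.0444 and 0.0694, adjusted p = 0.255 and 0.465). That r was 0.68 with each group centred and 0.95 without the 2 arrays farthest from the median of ALDH7B4. The pair in family 10 had r = 0.40 and rho = 0.52 (exact permutation p = 0.334 and 0.197, adjusted p = 0.609 and 0.550). The labels name no batch, and 4 arrays a group are too few for a correlation within each.

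**Figure D3:**
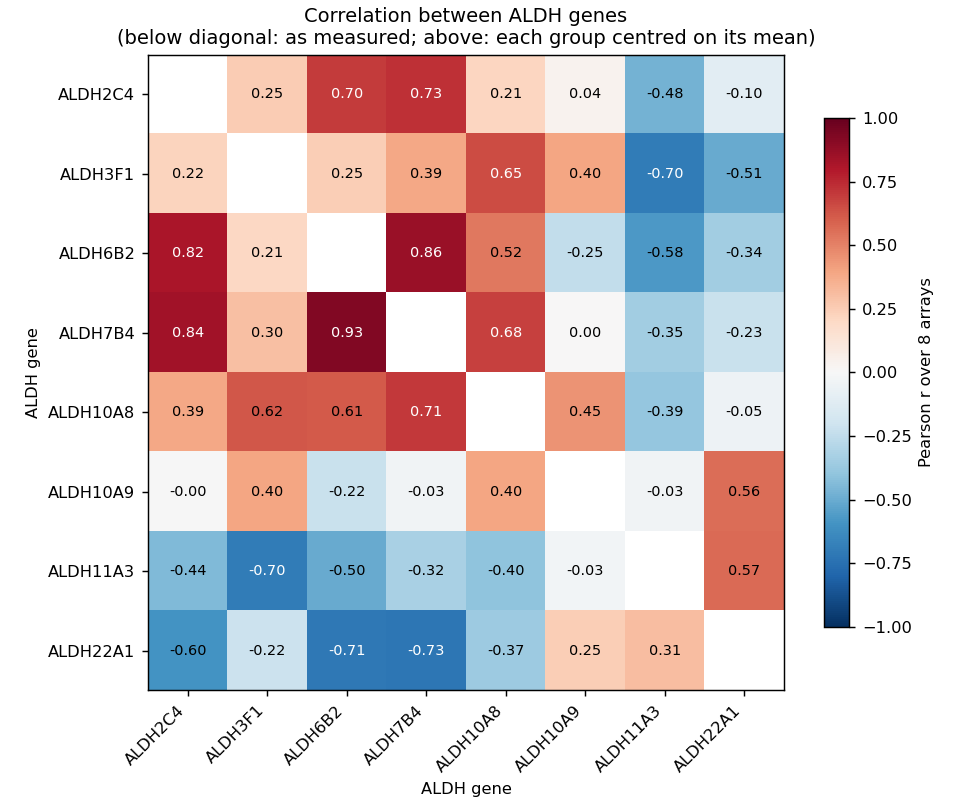
Pearson's r between the ALDH genes over the 8 arrays on the log2(signal + 10) scale, as measured below the diagonal and with each group centred on its mean above it. ALDH2C4, ALDH6B2 and ALDH7B4 have r from 0.82 to 0.93 with each other as measured and from 0.70 to 0.86 after centring, and of their 3 pairs ALDH6B2 with ALDH7B4 alone passed the test. ALDH7B4 with ALDH10A8 has r of 0.71 as measured and 0.68 after centring, and did not pass.

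The genes most like ALDH7B4 over the 8 arrays, among 8427 others that name 1 gene, were AT1G21520 (r = 0.98), AT4G36680 (0.97) and AT5G51570 (0.97). Those most like ALDH6B2 were AT5G42050 (0.97), AT5G35735 (0.96) and AT1G78800 (0.96). These were picked as the closest of many over the same 8 arrays, so the values describe 8 arrays and carry no test. Their direction between the groups and their values in not-elevated replicate 1 follow from that choice and are no separate finding. The 6 genes were lower in the mean of the elevated group, from 42.6 ± 11.1 to 25.1 ± 6.38 units for AT1G21520 and from 214 ± 35.1 to 175 ± 14.2 units for AT5G42050, and limma's adjusted p lay between 0.221 and 0.503. Not-elevated replicate 1 was the lowest of its group in each of the 6, as in AT1G21520 (27.6 units against 41.0 to 51.1) and AT5G42050 (161.1 units against 228.6 to 233.1).

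Genes that work beside the ALDH enzymes were taken from 10 pathway lists with 83 loci, of which 18 are named on the array and 16 were tested. Of the 16, 8 were lower and 8 higher, and 1 passed the test, where 0.314% of all tested probe sets did. That gene, FDH, encodes formate dehydrogenase, which oxidises the formate left by formaldehyde breakdown. Its signal was 147 ± 24.6 units in the not-elevated and 80.8 ± 19.7 units in the elevated group, a log2 difference of -0.80 ± 0.15 (SE, limma adjusted p = 0.0489). The call held in 7 of 18 alternatives, whose adjusted p ran from 0.0123 to 0.191. Not-elevated replicate 1 read 111.3 units and the other 3 from 154.3 to 167.4, and the elevated arrays from 60.1 to 101.3 without overlap, as in 6.11% of tested probe sets.

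In the list of osmotic stress response, COR15A and COR15B, cold-regulated chloroplast protein genes, were the 2 of 9 loci tested and 0 passed. Their log2 differences were -0.76 and -0.52 (limma adjusted p = 0.141 and 0.113), beside -0.31 for ALDH7B4. COR15B passed without elevated replicate 3 (-0.61, limma adjusted p = 0.0459) and in no other alternative. Its groups did not overlap, as in 6.11% of tested probe sets, and those of COR15A did. Here not-elevated replicate 1 was not low in its group. It read 82.8 units in COR15A against 52.8 to 95.6 in the other 3, unlike its low value in ALDH7B4.

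Branched-chain amino acid breakdown, the pathway around ALDH6B2, had 5 of 12 loci tested, 2 higher and 3 lower, and 0 passed. AT2G26800 had signals of 140 ± 25.7 and 160.1 ± 7.25 units (SD, n = 4 each; log2 difference 0.19 ± 0.11 SE, limma adjusted p = 0.579), and MCCA, a subunit of methylcrotonyl-CoA carboxylase in leucine breakdown, 33.97 ± 5.75 and 39.9 ± 11.8 units (0.16 ± 0.17, 0.781). Without elevated replicate 1 MCCA stood at 0.025, and without not-elevated replicate 1 AT2G26800 stood at 0.093. The median of the 5 was -0.012, beside -0.22 for ALDH6B2.

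The phenylpropanoid and sinapate list, to which ALDH2C4 belongs by its reaction, had 1 of 17 loci tested. HCT, a hydroxycinnamoyl transferase upstream of coniferaldehyde, had signals of 627 ± 21.7 and 614 ± 22.8 units (log2 difference -0.029 ± 0.075 SE, limma adjusted p = 0.929). GAPC2, the cytosolic phosphorylating glyceraldehyde-3-phosphate dehydrogenase that shares the substrate of ALDH11A3, ran from 2042.8 to 2521.4 units in the not-elevated and from 2417.0 to 2832.5 units in the elevated group (0.17 ± 0.091, 0.524).

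Of other routes for reactive aldehydes, 3 of 8 loci were tested and 0 passed. AOR, an alkenal and alkenone reductase of chloroplasts, read 965 ± 34.3 and 1071 ± 112 units (log2 difference 0.14 ± 0.088 SE, limma adjusted p = 0.588), and AER, an alkenal reductase, 123 ± 20.7 and 122 ± 48.8 units (-0.062 ± 0.20, 0.944). AER ran from 76.3 to 191.1 units over the elevated arrays, with elevated replicate 1 the highest. The difference of AOR was 0.081 without elevated replicate 4, and that of AER 0.12 without the same array.

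In 3 more lists 1 gene each was tested, and 0 passed. DELTA-OAT, the ornithine aminotransferase of proline metabolism, stood at 0.058, ACS, the acetyl-CoA synthetase that uses acetate, at 0.028, and AT4G29890, of the choline and betaine list, at 0.18 (limma adjusted p = 0.915, 0.954 and 0.661). AT4G29890 stood at 0.079 without elevated replicate 1. The list of the GABA shunt had 0 of 9 loci named. These lists are represented by few members, which need not stand for their pathways.

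Of the cell type markers, 3 were tested and none passed an adjusted p of 0.05. TRY, a trichome patterning gene, had a log2 difference of 0.31 with an unadjusted p = 0.0291 and a limma adjusted p = 0.381. Its signal was 82.8 units in not-elevated replicate 1 and 51.6 to 66.4 units in the other 3, against 75.8 to 86.7 units in the elevated arrays. As in ALDH6B2 and ALDH7B4, that array alone lay within the elevated range, and without it the difference of TRY was 0.42 (limma adjusted p = 0.121, a setting added after the data were seen). The differences were 0.038 for the guard cell gene FMA and -0.091 for the root gene PYK10. The highest PYK10 signal, 38.4 units, came from elevated replicate 1, and the lowest of its group was 16.3 units. Neither xylem nor mesophyll markers were named, and the part of cell type make-up in the ALDH values was not tested.

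**Figure D4:**
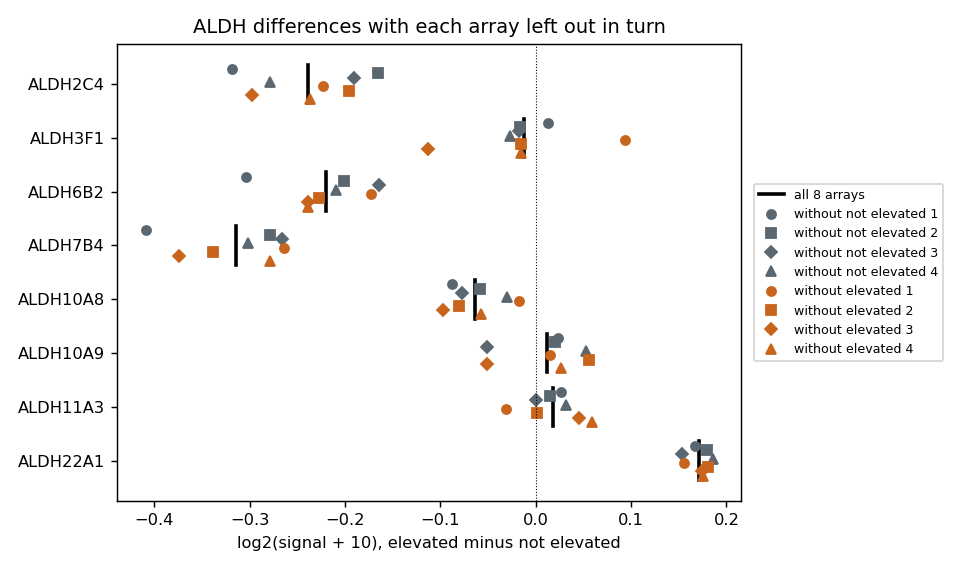
Difference of each ALDH gene on the log2(signal + 10) scale with all 8 arrays (black bar) and with each array left out in turn (points). ALDH2C4, ALDH6B2 and ALDH7B4 stay below 0 and ALDH22A1 above 0 in 8 of 8 fits, and the point farthest to the left in the first 3 is the fit without not-elevated replicate 1.

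Leaving out 1 array at a time moved ALDH7B4 between -0.41 and -0.26, ALDH6B2 between -0.30 and -0.16, ALDH2C4 between -0.32 and -0.17, and ALDH22A1 between 0.15 and 0.19 on the log2 scale. For the first 3 the lower end came without not-elevated replicate 1. ALDH10A8 stayed below 0 (-0.097 to -0.018), while ALDH3F1, ALDH10A9 and ALDH11A3 changed sign with the array left out.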

How the data were processed

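The deposited intensity values are linear MAS5 signals, 1 per probe set. The submitters' processing notes name MAS5 and no version. In the deposited values each array had a mean of 100 units after trimming 2% at each end, so a change shared by all transcripts cannot be seen. Detection calls were not used. Earlier steps are not given in the sources used.

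Of 22746 probe sets besides 64 controls, 15296 whose signals averaged 20 units or more were tested. The log2(signal + 10) values of the groups were compared with limma 3.58.1 in R 4.3.3 (lmFit, eBayes with trend), two-sided, with Benjamini-Hochberg adjustment over all tested probe sets at 0.05. Probe sets were named through the platform gene table, updated by gene number through the RefSeq table of TAIR10.1. Of 22746, 13513 name 1 gene, 503 several and 8730 none, and 13436 matched a locus. No coordinates are given, since no genome build is named in the files. Errors are SDs over 4 arrays or the fit's SEs, and the number of arrays limits precision.

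The members and lists were chosen with earlier results of these data known. Named are all members, the up to 2 other tested genes of each list with the smallest p and any called, and the 3 genes most correlated with each of the 2 members of smallest p. Alternatives were other scalings, pseudocounts, filters and variance models, a replicate block and arrays left out.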

Additional observations from a re-analysis of the deposited data

How the results depend on the processing

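The count of ALDH genes past limma's threshold was 0 in all 18 alternatives, with 1 to 3 of the 8 at an unadjusted p under 0.05, and their median log2 difference lay between -0.105, without elevated replicate 3, and -0.019, with array weights. The 8 genes have 1 probe set each, so averaging probe sets gave the same median. The count of all probe sets called was 48, and 30 with quantile normalization, 28 with a pseudocount of 1, 1 without a filter, 9 without the trend, 132 with array weights, 144 without both replicate 1 arrays (chosen after the data were seen) and 0 to 131 with 1 array left out. The 0 came without not-elevated replicate 3, where 1395 had an unadjusted p under 0.05, and the 131 without not-elevated replicate 1. With the replicate number as a block it was 50, and the block changed 0 calls of members or named genes. Deviations of same-numbered arrays correlated at -0.18 to -0.037, so the numbers were not taken as pairs. In 0 of 8 arrays was the closest array of the other group the one of the same number. The count of correlated pairs, 1, went to 0 with quantile normalization (r of ALDH6B2 and ALDH7B4 0.92, exact permutation adjusted p = 0.0604). Signs changed in ALDH11A3 with quantile normalization (-0.020), in ALDH3F1 (0.030) and DELTA-OAT (-0.019) with array weights, and in ALDH3F1 (0.12), ALDH11A3 (-0.024) and DELTA-OAT (-0.079) without both replicate 1 arrays. With 1 array left out, ALDH3F1 ran from -0.11 to 0.094, ALDH10A9 from -0.051 to 0.056, ALDH11A3 from -0.032 to 0.059, ACS from -0.040 to 0.094, AER from -0.29 to 0.12 and DELTA-OAT from -0.046 to 0.16. Without sign changes, MCCA ran from 0.025 to 0.27, AT2G26800 from 0.093 to 0.29, AOR from 0.081 to 0.20, AT4G29890 from 0.079 to 0.23 and HCT from -0.049 to -0.0058. The cause was not tested.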
